A study of Mus musculus with 18 samples.

Results

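The major urinary protein (Mup) genes encode small barrel-shaped proteins of the lipocalin family. They are made by hepatocytes, secreted into blood and passed into urine, where they carry volatile pheromones. Most members arose by recent duplication and lie in 1 cluster on mouse chromosome 4. Their transcription in liver is known to depend on growth hormone, which acts through its receptor and the transcription factor STAT5b. Males secrete the hormone in pulses and express most members more strongly than females. Mup20 encodes darcin, a male pheromone. Members were chosen by name: Mup1, Mup2, Mup3, Mup7, Mup11, Mup14, Mup17, Mup20 and Mup21, which are 9 of the 55421 genes in the tables. All 9 passed the filter on low counts. A further 40 Mup rows, of which 27 are annotated as pseudogenes, entered the sum over the family.

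Whole-liver poly-A RNA was sequenced from 18 C57BL/6 mice in 6 groups of 3. HIRA is a histone chaperone that places a replacement histone variant into chromatin. HIRA KO mice carried floxed Hira alleles (HIRA fl/fl) and received AAV8 Tbg-Cre, a virus that expresses Cre recombinase from the hepatocyte-specific Tbg promoter. One control group, HIRA fl/fl AAV ctl, had the floxed alleles and AAV8 Tbg-MCS, which carries no Cre, and the other, WT AAV Tbg-Cre, was wildtype with AAV8 Tbg-Cre. Males and females formed separate groups. Injection was at 6 months of age, and livers were taken after a further 12 months. Cre therefore acted in hepatocytes, while RNA came from all cells of the liver, so fewer cells of a type and less RNA per cell cannot be told apart.

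The 9 members share sequence to different degrees, which bears on how far a read can be assigned to 1 of them. Over coding sequences of 540 to 552 bases, Mup1, Mup2, Mup7, Mup11, Mup14 and Mup17 were 98.34% to 99.44% identical to each other and differed at 3 to 9 bases. Mup20 was 90.06% to 91.34% identical to these 6, Mup21 83.61% to 84.71% and Mup3 82.07% to 83.33%, while Mup3 and Mup21 were 94.75% identical. The stretches printed next cover 60 coding bases, which are bases 214 to 273 of Mup11. With the intron that they span, these bases reach over chr4:60660922-60661749 (GRCm38, minus strand). The window was picked because the first 6 members were most alike there relative to Mup3, Mup20 and Mup21. It therefore shows larger differences from these 3 than the whole coding sequences do. The stretches come from the GENCODE vM21 transcripts, run 5′ to 3′, and carry capitals where a base differs from Mup11.
Mup1, Mup2, Mup11 and Mup14: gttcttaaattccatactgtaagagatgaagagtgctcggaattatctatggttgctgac
Mup7 and Mup17: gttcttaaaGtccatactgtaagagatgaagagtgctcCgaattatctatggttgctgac
Mup20: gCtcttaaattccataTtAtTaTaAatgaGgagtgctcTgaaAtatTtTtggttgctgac
Mup21: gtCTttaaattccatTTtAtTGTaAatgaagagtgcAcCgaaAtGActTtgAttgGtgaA
Mup3: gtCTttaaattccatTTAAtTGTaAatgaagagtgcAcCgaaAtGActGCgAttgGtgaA

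In this stretch 4 members were identical, Mup7 and Mup17 differed from them at 2 bases, Mup20 at 11, Mup21 at 18 and Mup3 at 20. Over whole transcripts, 97.8% of the 100-base stretches of Mup3 and 95.5% of those of Mup21 occurred in no other annotated gene. The share was 61.2% for Mup20, 44.3% for Mup1, 40.6% for Mup17, 29.4% for Mup11, 24.5% for Mup2, 24.3% for Mup14 and 23.9% for Mup7. All 9 are protein-coding and lie on the minus strand of chromosome 4 (GRCm38). Their order is Mup7 (chr4:60066469-60070475), Mup2 (chr4:60135932-60154289), Mup1 (chr4:60498012-60501960), Mup11 (chr4:60658466-60662411), Mup14 (chr4:61300023-61304000), Mup17 (chr4:61591929-61595871), Mup20 (chr4:62050234-62054158), Mup3 (chr4:62083476-62087342) and Mup21 (chr4:62147932-62150863).

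The deposited counts and the deposited FPKM (a measure scaled to transcript length and sequencing depth) differed widely for some members. Mup3, Mup20 and Mup21 held 90.3% to 98.8% of the family's counts in every mouse, but 13.2% to 73.0% of its FPKM. Mup10, a family member outside the 9, had at most 4 counts in any mouse and 2185 to 3683 FPKM in control males. How shared reads were handled in either measure is not given in the sources used here, so the values of the 6 near-identical members cannot be assigned to 1 copy with certainty. Across 18 mice the log2 FPKM of these 6 correlated pairwise with Pearson's r from 0.991 to 0.999, a description of values that share reads. Their values are therefore not independent of each other, also where they are given gene by gene or counted among the members.

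**Figure D1:**
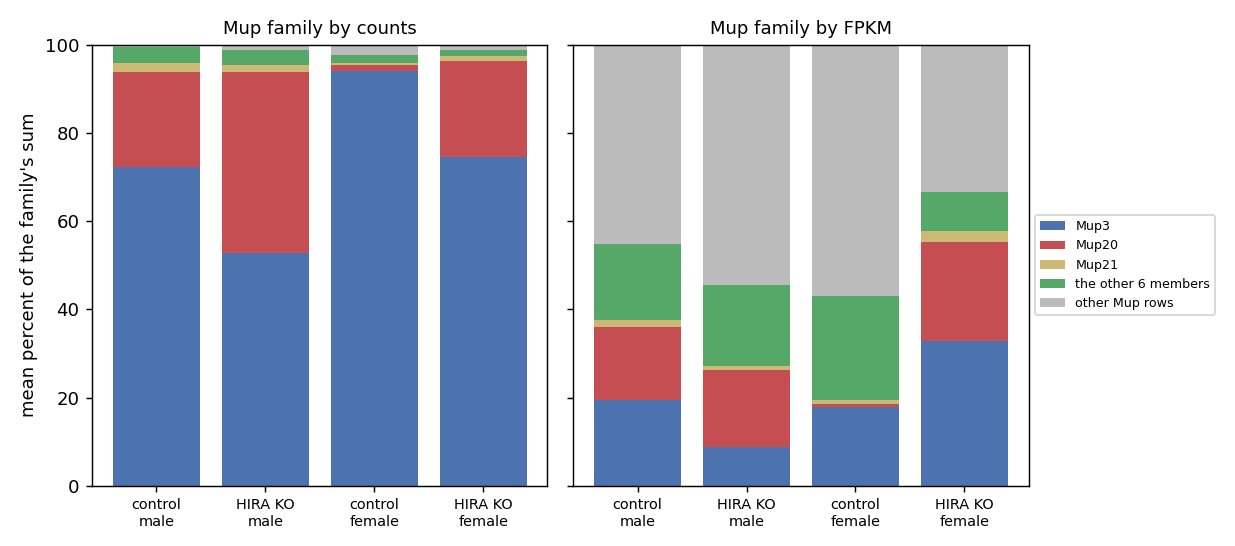
Mean share of the family's sum (vertical axis, percent) taken by Mup3, Mup20, Mup21, the other 6 members and the other 40 Mup rows in 4 groups, in the counts (left) and in the FPKM (right). Mup3 took 94.1% of the counts in control females but 18.0% of the FPKM, and Mup20 took 21.7% of the counts in HIRA KO females against 1.23% in control females.

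Totals were 15210023 to 24389407 counts per mouse. The targeted gene did not separate the groups in males. Hira was at 3.71, 3.00 and 9.42 CPM (counts scaled to library size) in HIRA KO males against 3.59 to 7.96 CPM in control males, and at 3.02 to 4.28 CPM in HIRA KO females against 4.43 to 7.62 CPM in control females (log2 fold change over both sexes −0.47, SE 0.23, adjusted p = 0.141). The library labelled HIRA KO male replicate 3 was above every control male for Hira. These counts cover the whole gene, also outside any floxed part, and all liver cells, and HIRA protein was not analysed here. The HIRA KO male libraries also stood apart in their low counts, with 0.125 to 0.153 genes at 4 to 9 counts for each gene at 10 to 99, against 0.402 to 0.552 in all other mice. They held 129 to 267 counts of the female transcript Xist, against 10 to 38 in control males and 7461 or more in females. The part of these features, and of the cell type markers given next, in the results was not tested. Summed hepatocyte markers (Alb, Apoa1, Ttr, Serpina1a and Apoe) were high in every mouse, at 128000 to 163300 CPM in HIRA KO males and 135300 to 163200 CPM in control males, with 155400 to 199400 and 119900 to 155800 CPM in females. Most of this sum is Alb. Of the 5, Apoa1 fell over both sexes and in males (−2.10, adjusted p = 0.000368) but was not called in females (−0.48, adjusted p = 0.506). Serpina1a fell in males (−1.10, adjusted p = 0.000341), and Ttr was at 0.79 over both sexes (adjusted p = 0.000142), within the fold threshold. All 4 cholangiocyte markers (Krt19, Epcam, Sox9, Spp1) rose over both sexes, where 8.5% of all genes were called in either direction. Their summed level was 165 to 245 against 43.0 to 94.6 CPM in males and 189 to 279 against 75.0 to 179 CPM in females. Epcam was not called in males (0.67, adjusted p = 0.244), nor were Sox9 (1.09, adjusted p = 0.0521) and Spp1 (0.97) in females. Of the 4 stellate cell markers Col1a1 and Col1a2 rose, with a sum of 284 to 608 CPM in HIRA KO mice and 199 to 366 CPM in controls. Over both sexes Cd3g of 3 T cell markers and S100a9 of 2 neutrophil markers rose. Cd3g was not called in females (adjusted p = 0.408), and S100a9 in neither sex alone (adjusted p = 0.165 in males and 0.172 in females). No Kupffer, endothelial or B cell marker was called by edgeR over both sexes at an absolute log2 fold change above 1.

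The family as a whole fell in HIRA KO livers of both sexes. In males the 49 Mup rows took 0.522%, 0.205% and 0.267% of all counts in the HIRA KO mice, and 1.17% to 2.07% in the 6 controls. In females they took 0.0422%, 0.0332% and 0.0178% of counts in the HIRA KO mice, and 0.149% to 0.243% in controls. Every HIRA KO mouse lay below every control of its sex, and HIRA KO male replicate 1 and HIRA KO female replicate 3 were the highest and the lowest of their groups. The mean share was 0.331% ± 0.168 (SD, n = 3) against 1.54% ± 0.338 (n = 6) in males and 0.0311% ± 0.0123 against 0.182% ± 0.0373 in females. Two-sided exact permutation tests over 84 splits gave p = 0.0238 in each sex, the smallest that this design allows. As 1 feature in the fit across all genes, the family sum fell with a log2 fold change of −2.48 (SE 0.22) over both sexes (adjusted p = 1.07e-07), of −2.41 (SE 0.32) in males (adjusted p = 3.3e-05) and of −2.55 (SE 0.32) in females (adjusted p = 2.95e-05). These were 5.59-fold, 5.32-fold and 5.87-fold falls. Without the library labelled HIRA KO male replicate 3 the male value was −2.29 (adjusted p = 0.000366), and a fit of the females alone gave −2.56 (adjusted p = 0.000182).

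**Figure D2:**
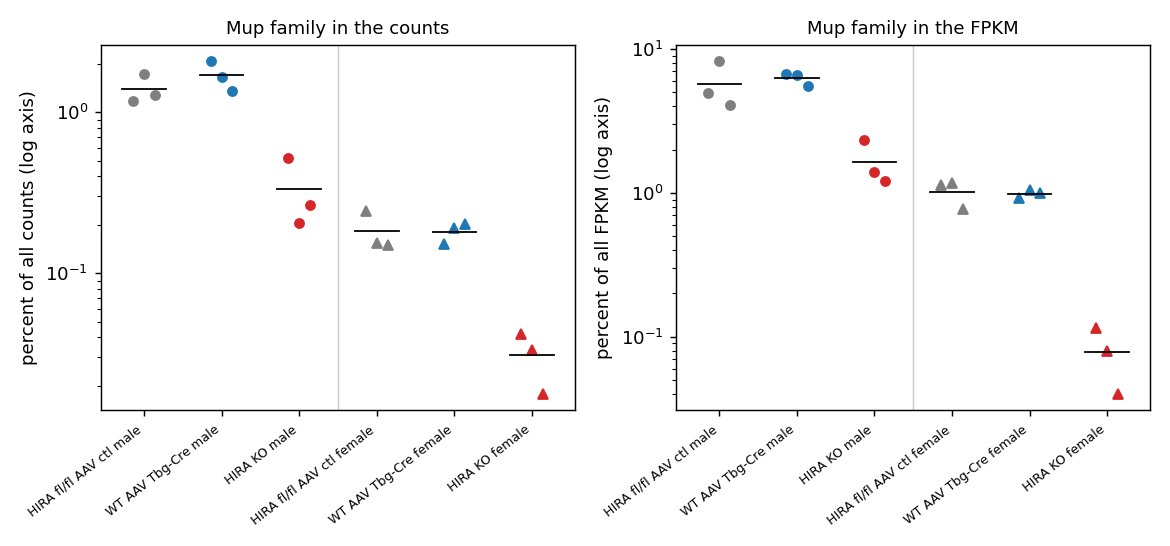
Sum of the 49 Mup rows as a percent of all counts (left) and of all FPKM (right), both on log axes, with 1 point per mouse (circles males, triangles females) and a line at each group's mean. In the counts HIRA KO males sat between 0.205% and 0.522% and control males at 1.17% or above, and HIRA KO females at 0.0422% or below and control females at 0.149% or above.

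In counts the difference in this fall between the sexes was 0.14 on the log2 scale (SE 0.39, adjusted p = 0.926) and was not called. In FPKM it was called. The family took 1.22% to 2.34% of FPKM in HIRA KO males and 4.07% to 8.25% in control males, against 0.0400% to 0.115% in HIRA KO females and 0.772% to 1.16% in control females. On the log2(FPKM + 1) scale the family sum fell by 1.69 in males (SE 0.34, limma adjusted p = 0.00391) and fell by 3.81 in females (SE 0.34, adjusted p = 7.16e-06), and the difference was 2.12 (adjusted p = 0.0391). The male-to-female ratio of mean family FPKM was 6.04 in controls and 24.9 in HIRA KO mice, while the same ratio in CPM was 9.01 and 9.93.

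In the counts 4 of the 9 members fell over both sexes (Mup1, Mup3, Mup17 and Mup21) and the others did not pass the test, where a gene was called at an adjusted p below 0.05 and an absolute log2 fold change above 1. Of all 23512 genes tested, 3.7% were called lower. In males 5 members fell (Mup1, Mup3, Mup11, Mup20 and Mup21), against 5.1% of all genes. In females 3 fell (Mup3, Mup17 and Mup21), against 0.889% of all genes, and 1 rose (Mup20), against 1.6%. The median log2 fold change of the 9 members was −2.27 in males and −1.30 in females, where the medians of all tested genes were −0.04 and 0.00. Of the other 28 Mup rows tested, 18 fell over both sexes and 0 rose. In CPM 4 members in males lay below all controls without overlap (8.91% of all genes did), 4 did so in females (7.16%), and Mup20 in females lay above all controls (7.46% of all genes did).

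Mup3, which had the highest mean FPKM of the members in control females and in pooled control males, fell in both sexes. In males it was at 2576, 1037 and 1295 CPM in HIRA KO mice, and at 9284 to 16147 CPM (median 10992) in controls. In females it was at 388, 228 and 104 CPM in HIRA KO mice, and at 1352 to 2366 CPM (median 1594) in controls. The groups did not overlap in either sex, and the 3 HIRA KO males spanned the range of the control females. The log2 fold change was −2.84 in males (SE 0.36, adjusted p = 2.01e-05) and −2.83 in females (SE 0.36, adjusted p = 3.27e-05). Without the library labelled HIRA KO male replicate 3 the male values of Mup3, Mup20 and Mup21 were −2.69, −1.52 and −2.60, and all 3 remained called.

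Mup20, the darcin gene, moved in opposite directions in the sexes. In HIRA KO males it was at 1634, 829 and 1178 CPM, against 2016 to 5184 CPM (median 3609) in control males. In HIRA KO females it was at 37.8, 80.4 and 49.6 CPM, against 15.0 to 30.7 CPM (median 21.6) in control females. In CPM every HIRA KO male was below every control male and every HIRA KO female above every control female. In FPKM the males overlapped, with the highest HIRA KO male at 5309 FPKM and the lowest control male at 5269. Mup20 fell in males with a log2 fold change of −1.55 (SE 0.31, adjusted p = 0.00187) and rose in females with 1.34 (SE 0.29, adjusted p = 0.00575). The difference of the effect between sexes was −2.89 (SE 0.43, adjusted p = 0.00146), and Mup20 was the 1 member called for this difference in the counts as filtered here, against 1.46% of all genes. Over both sexes its change was −0.10 (adjusted p = 0.779).

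The rise in females was small beside the difference between the sexes. Control males had 161 times the mean Mup20 CPM of control females, and HIRA KO males still had 21.7 times that of HIRA KO females. Without HIRA KO female replicate 2, which had the highest value, the female change was 0.98 (adjusted p = 0.108) and the call was lost. In FPKM the female change was 1.23 on the log2(FPKM + 1) scale and missed the threshold (limma adjusted p = 0.0579), although its values of 82.9, 194 and 134 FPKM lay above the 44.0 to 78.2 FPKM of controls. Transcripts of 4 Y-linked genes (Ddx3y, Eif2s3y, Kdm5d and Uty) summed to 3 to 13 counts in HIRA KO females and 0 to 20 in control females, against 2822 or more in males.

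Mup21, a close relative of Mup3, fell in both sexes. In males it was at 83.5, 34.0 and 34.4 CPM in HIRA KO mice and 219 to 542 CPM (median 337) in controls. In females it was at 5.94, 4.31 and 2.14 CPM in HIRA KO mice and 6.12 to 16.4 CPM (median 9.72) in controls. The male groups lay well apart, while the female groups did not overlap by a narrow gap. The log2 fold change was −2.83 in males (SE 0.39, adjusted p = 5.1e-05) and −1.30 in females (SE 0.39, adjusted p = 0.0482), and their difference of −1.52 was not called (adjusted p = 0.123). That difference was called with no filter on low counts (−1.52, adjusted p = 0.0478) and without HIRA KO male replicate 1 (−2.07, adjusted p = 0.025). The female call was lost in 10 of the 18 fits that left out 1 mouse and with WT AAV Tbg-Cre as the only controls (−0.93, adjusted p = 0.267), while in FPKM the female change was −2.16 (limma adjusted p = 0.000265).

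**Figure D3:**
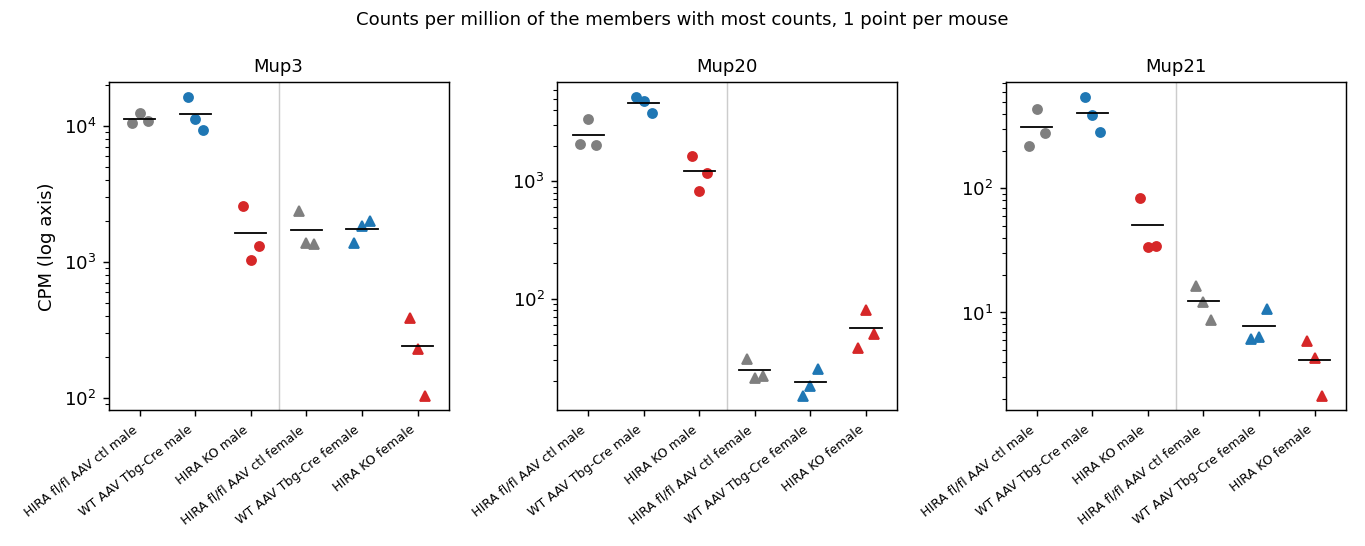
CPM (log axes) of Mup3, Mup20 and Mup21 in each mouse by group (circles males, triangles females, line at the group mean). Mup20 in the 3 HIRA KO females sat between 37.8 and 80.4 CPM, above all 6 control females, while Mup3 in HIRA KO mice lay below the controls of its sex.

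The 6 near-identical members, which encode urinary proteins of almost the same sequence, were far lower in HIRA KO females by FPKM. In control females their FPKM ran from 204 to 771 over all 6 genes and 6 mice. In HIRA KO females they ran from 18.6 to 44.6 in replicate 1, from 8.76 to 14.1 in replicate 2 and from 0.812 to 2.72 in replicate 3. No HIRA KO female came near the lowest control, and replicate 3 was lower than the other two for all 6 genes. On the log2(FPKM + 1) scale all 6 fell in females, with log2 changes of −5.14 (Mup17) to −5.56 (Mup14), with limma adjusted p from 2.01e-05 to 0.000167. Mup3 and Mup21 fell in females by FPKM too, where 0.702% of all genes were called lower, and all members but Mup20 lay below all controls (4.71% of all genes did). Since the 6 share reads, they do not count as 6 separate genes against these percentages.

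By FPKM the same 6 members were lower by less in males. Their FPKM ran from 696 to 4867 in control males, and in HIRA KO males from 613 to 1389 in replicate 1, from 297 to 656 in replicate 2 and from 247 to 638 in replicate 3. Each gene's 3 HIRA KO males lay below its 6 controls, as did 8 of 9 members and 5.66% of all genes. None of the 6 was called by limma on FPKM in males, with log2 changes of −1.44 to −1.98 and adjusted p from 0.0523 to 0.108. By FPKM 3 members fell in males (Mup3, Mup20 and Mup21), against 1.16% of all genes. The difference between sexes was called for Mup20 and, within the group that shares reads, for all but Mup7, where 0.999% of all genes were called. It was 4.12 on the log2(FPKM + 1) scale for Mup14 (SE 0.81, adjusted p = 0.0197), and of the 6 it missed the threshold for Mup7 (3.22, adjusted p = 0.106). In the counts Mup7, Mup11 and Mup14 went the other way, at −2.35, −2.45 and −1.71 in males against −1.37, −0.71 and 0.80 in females. Mup2 (−0.42 against −1.14) and Mup17 (−1.97 against −4.53) were lower by less in males there, and Mup1 was at −2.265 against −2.235. As filtered here, none of the 6 was called for this difference in the counts.

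**Figure D4:**
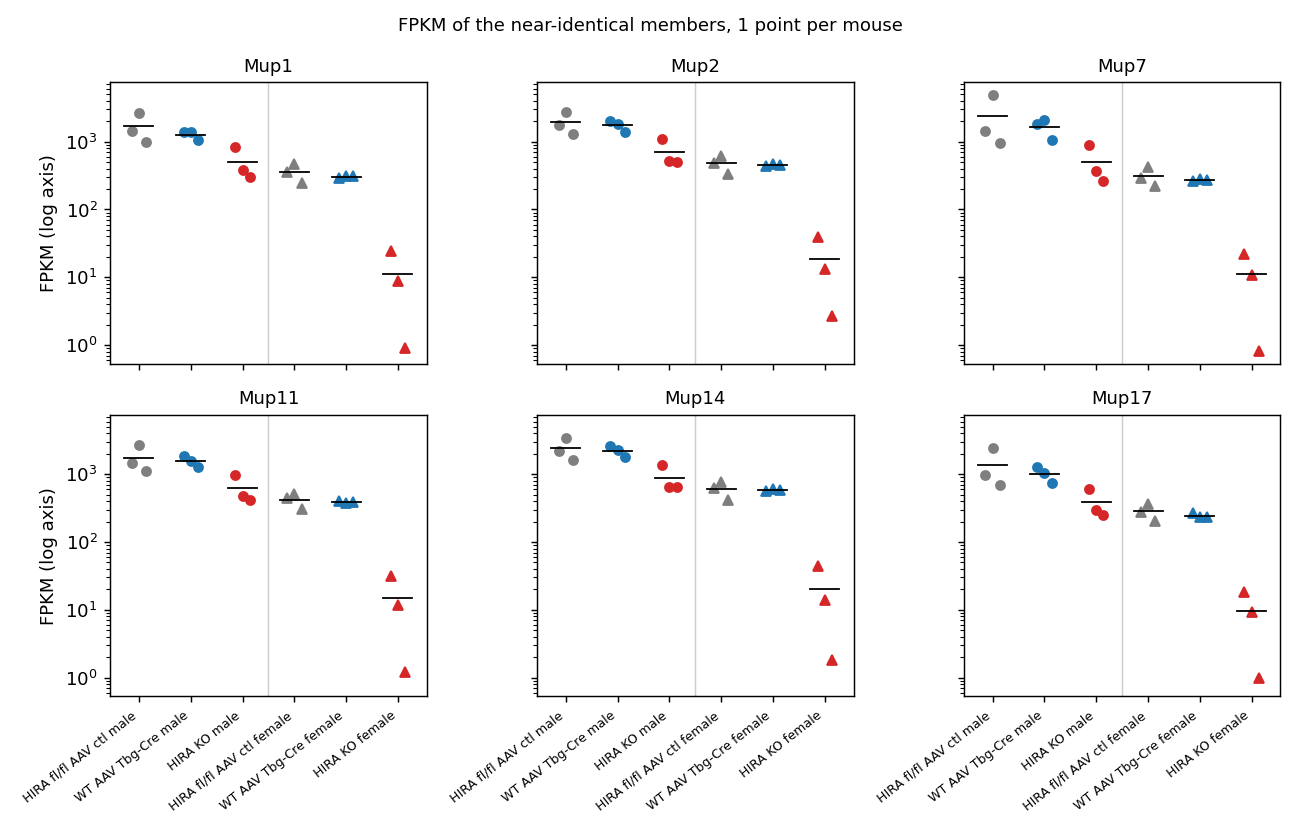
FPKM (log axes) of the 6 near-identical members in each mouse by group (circles males, triangles females, line at the group mean). HIRA KO females sat at 44.6 FPKM or below for every gene, control females at 204 FPKM or above, and HIRA KO males between 247 and 1389 FPKM.

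The counts of these members were few and uneven. In HIRA KO females Mup1 had 2, 0 and 1 counts, Mup14 had 1, 26 and 0, Mup7 had 3, 17 and 0, and Mup11 had 25, 24 and 1. Control females had 3 to 9 counts of Mup1, 0 to 13 of Mup14, 2 to 61 of Mup7 and 14 to 62 of Mup11, so few reads stood behind these female values. Mup17 was counted more often in control females, with 206 to 1199 counts against 26, 29 and 7 in HIRA KO females. It fell in females with a log2 fold change of −4.53 (SE 0.96, adjusted p = 0.00578), and the call was lost without HIRA KO female replicate 3 (−4.02, adjusted p = 0.0522). Mup1 fell over both sexes (−2.25, SE 0.52, adjusted p = 0.00363) and Mup17 did too (−3.25, SE 0.61, adjusted p = 0.000635). With voom weights the call of Mup1 over both sexes (−2.32, adjusted p = 0.0717) and in males (−2.31, adjusted p = 0.37) and those of Mup17 and Mup21 in females (adjusted p = 0.0919 and 0.0945) were lost. In males the Mup1 call was also lost with WT AAV Tbg-Cre as the only controls (−1.90, adjusted p = 0.0766).

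In the male counts HIRA KO replicate 1 stood apart for these members. Mup11 was at 109, 10.2 and 3.75 CPM in HIRA KO males and 93.9 to 538 CPM in controls. Mup7 was at 98.8, 14.0 and 0.608 CPM against 29.5 to 608, and Mup14 at 65.5, 6.05 and 2.63 CPM against 18.5 to 161. HIRA KO male replicate 1 lay within the range of the controls for all 3 genes, and the other two mice lay below it. Mup11 was called in males (−2.45, SE 0.76, adjusted p = 0.0264), but not without HIRA KO replicate 2 (−1.98, adjusted p = 0.0758), HIRA KO replicate 3 (−1.90, adjusted p = 0.0604) or HIRA fl/fl AAV ctl replicate 2 (−1.96, adjusted p = 0.0576). The Mup11 call was also lost with WT AAV Tbg-Cre as the only controls (−2.15, adjusted p = 0.0999) and in a fit of the males alone (−2.44, adjusted p = 0.0848). Without HIRA KO male replicate 1, 8 of 9 members were called in males, all but Mup2, and the share of all genes in that fit is not given here. Mup2 was called in neither sex in the counts, at 3.30 to 5.47 CPM against 2.54 to 8.88 CPM in males and 0.653 to 2.39 against 1.69 to 5.38 CPM in females. Without HIRA KO female replicate 1 Mup2 was called in females (−1.84, adjusted p = 0.0487) and over both sexes (−1.12, adjusted p = 0.0228).

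**Figure D5:**
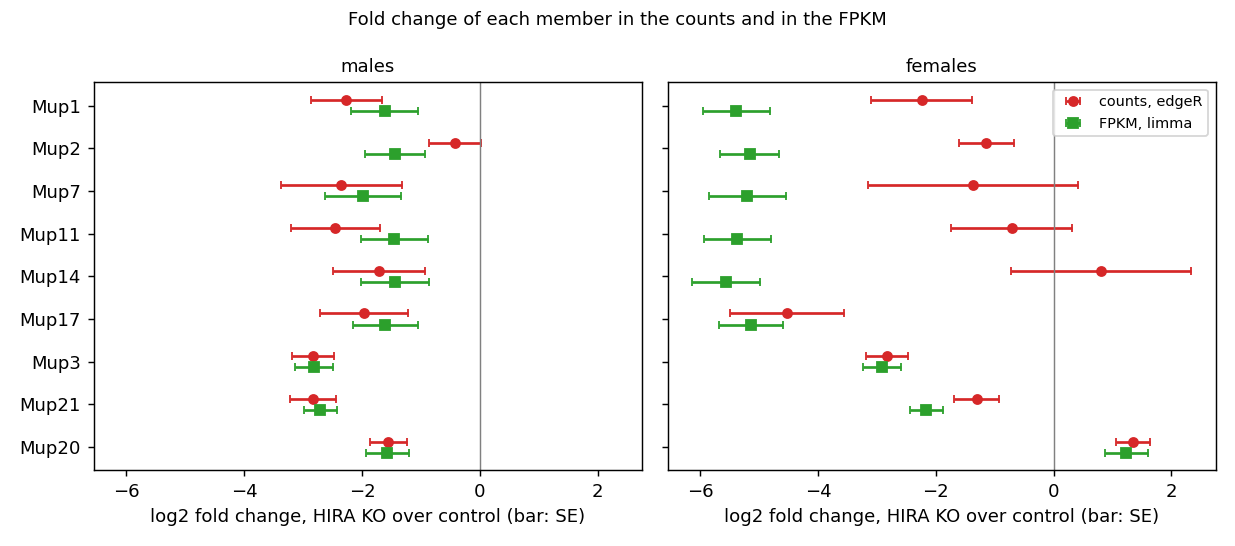
Log2 fold change of HIRA KO over control (horizontal axis, bars are SE) for each member in males (left) and females (right), from the counts by edgeR (circles) and from the log2(FPKM + 1) values by limma (squares). Mup3 was at −2.84 and −2.81 in males by the 2 measures, while in females Mup14 was at 0.80 in the counts and −5.56 in the FPKM.

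In control livers most members were higher in males. Of the 9 members 8 were higher in control males than in control females by counts, all but Mup2, against 0.982% of all genes, and all 9 were higher by log2(FPKM + 1), against 0.561%. With a pseudocount of 0.1 the calls of Mup11 and Mup14 were lost (adjusted p = 0.0589 and 0.0566), which left 7. Mup20 had the widest ratio of mean FPKM at 181-fold, followed by Mup21 at 10.8-fold and Mup7 at 6.96-fold, and the near-identical members other than Mup7 were 3.91-fold to 4.51-fold higher in males. The family sum was higher in control males with a log2 fold change of 3.17 (SE 0.25, adjusted p = 9.86e-09). The Mup17 count result (2.04, SE 0.57, adjusted p = 0.0499) was lost in 12 of the 18 fits that left out 1 mouse, with RLE scaling (adjusted p = 0.052) and with either control type alone (adjusted p = 0.28 and 0.438). Among HIRA KO mice the 6 near-identical members had male-to-female ratios of mean FPKM of up to 45.4 (Mup7), and Mup3 had 6.82.

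By FPKM, which compares levels per length, Mup3 (11362 ± 2195, SD, n = 6) and Mup20 (10042 ± 3797) led in control males, at ranks 13 and 20 of 29476 genes with a value above 0. Mup14 (2334 ± 646), Mup7 (2040 ± 1453), Mup2 (1846 ± 529), Mup11 (1669 ± 581), Mup1 (1481 ± 597), Mup17 (1189 ± 635) and Mup21 (916 ± 233) followed. Only the step from Mup20 to Mup14 separated neighbours in this order without overlap between mice. By control type, mean Mup20 (13045 FPKM) was above mean Mup3 (12010) in WT AAV Tbg-Cre males and below it in HIRA fl/fl AAV ctl males (7039 against 10715). In control females Mup3 led (1776 ± 397, rank 72), the 6 near-identical members had means from 264 to 597, and Mup21 (85.2 ± 18.0) and Mup20 (55.4 ± 12.0) were lowest. There the steps from Mup3 to Mup14 and from Mup17 to Mup21 had no overlap. In HIRA KO females Mup3 (254 ± 128, n = 3) was followed by Mup20 (137 ± 55.5), Mup14 (20.2 ± 22.0) and Mup21 (19.2 ± 7.72), and the other 5 had means of 9.63 to 18.6 FPKM.

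Within each sex, WT AAV Tbg-Cre mice were set against HIRA fl/fl AAV ctl mice. These groups differ in both virus and alleles, and no group lacked both Cre and floxed alleles. The contrast gives only a difference between control types, in which shifts of the same size and direction would cancel. Whether the Cre virus alone or the floxed alleles alone moved the family was therefore not tested. The family sum differed by 0.27 on the log2 scale in males and by −0.01 in females (WT AAV Tbg-Cre over HIRA fl/fl AAV ctl, adjusted p = 1 in both). By edgeR 0 of 9 members were called in either sex, where 0 genes (0%) were called in males and 1 gene (0.00425%) in females. DESeq2 also called 0 members, and 13 and 22 genes. At an unadjusted p below 0.05 edgeR passed 1 member in males (Mup20) of 745 genes, and 0 in females of 839 genes. Mup20 in males was at 2092, 3378 and 2016 CPM in HIRA fl/fl AAV ctl and at 5184, 4811 and 3840 CPM in WT AAV Tbg-Cre mice, which did not overlap, and HIRA KO males were below both. Against HIRA fl/fl AAV ctl alone the log2 fold change of the family sum was −2.27 in males and −2.56 in females (adjusted p = 0.000332 and 0.000235). With only WT AAV Tbg-Cre mice as controls it was −2.54 (adjusted p = 0.000157) and −2.55 (adjusted p = 0.000188).

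In a list of 27 genes of growth hormone signalling and liver transcription factors, 2 were called over both sexes, Cish and Socs2, against 8.5% of all genes in either direction, and 25 were not. Both are feedback inhibitors that growth hormone induces. Cish was at 2.58 to 12.7 CPM in HIRA KO males, 5.51 to 6.53 in HIRA KO females, 3.28 to 53.4 in control males and 8.07 to 26.1 in control females, and its groups overlapped in males. Its log2 fold change was −1.57 (SE 0.48, adjusted p = 0.0234), and that of Socs2 was −1.36 (SE 0.47, adjusted p = 0.0441). Their calls were lost in 3 and in 12 of the 18 fits that left out 1 mouse, and both were lost with HIRA fl/fl AAV ctl as the only controls (adjusted p = 0.0808 and 0.183). With no fold threshold 12 of the 27 passed in the lower direction, against 11.6% of all genes, and 2 in the higher direction, against 8.92%.

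Among these 12 was Ghr, the growth hormone receptor. It was at 295 to 356 CPM in HIRA KO males and 557 to 643 in control males, and at 307 to 400 in HIRA KO females and 486 to 1137 in control females, with no overlap in either sex (log2 fold change −0.89, SE 0.15, adjusted p = 0.000203). With HIRA fl/fl AAV ctl as the only controls Ghr passed the fold threshold too (−1.01, adjusted p = 0.000198). Igf1, a secreted growth factor that the hormone induces, changed by −0.82 (SE 0.10, adjusted p = 9.04e-06). Stat5b, which carries the signal to the nucleus, changed by −0.63 (SE 0.11, adjusted p = 0.000353) and Hnf4a, a hepatocyte transcription factor, by −0.54 (SE 0.11, adjusted p = 0.00154), but Hnf4a turned direction in FPKM (0.088, adjusted p = 0.962), where 1 control male is listed at 0. Cebpb, another liver transcription factor, changed by 0.65 (SE 0.11, adjusted p = 0.000225). The median over the 27 genes was −0.41 against −0.03 for all tested genes.

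Other lipocalins of the liver did not move as 1 group. Of 11 tested, 1 fell and 1 rose over both sexes, against 8.5% of all genes in either direction. Apom, an apolipoprotein that carries sphingosine phosphate, fell from 133 to 202 CPM in control males and 202 to 268 in control females to 53.3 to 89.8 in HIRA KO males and 47.1 to 85.2 in HIRA KO females (log2 fold change −1.59, SE 0.14, adjusted p = 6.95e-08). Apod was called higher (5.34, adjusted p = 0.00384) on counts that were mostly in 1 mouse, at 9.47 CPM in 1 HIRA KO male and at most 0.864 CPM elsewhere, and the call was lost without HIRA KO female replicate 2 (2.69, adjusted p = 1). Rbp4, which carries retinol in blood, changed by 0.65 (adjusted p = 0.000302) and C8g, a subunit of complement C8, by −0.69 (adjusted p = 0.000402), both within the fold threshold.

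Genes that start from 500 kb before the cluster to 500 kb after it were also read. The cluster spans chr4:59956804-62150863. Of 24 tested genes that are not Mup rows, 3 were called over both sexes, against 8.5% of all genes in either direction. Gm12909, which starts between Mup3 and Mup21, fell (−1.21, SE 0.23, adjusted p = 0.000595; −0.90 and within the fold threshold in FPKM), and so did Rgs3, a regulator of G protein signalling (−1.18, SE 0.37, adjusted p = 0.0259). The Rgs3 call was lost with either control type alone (adjusted p = 0.054 and 0.0931), with voom weights (adjusted p = 0.117), without HIRA KO male replicate 2 (−0.92) and without any 1 of the 3 HIRA KO females (adjusted p from 0.053 to 0.0552). Bspry rose (2.68, SE 0.78, adjusted p = 0.0177) at 2.89 CPM or less in every mouse, and its call was lost with either control type alone (adjusted p = 0.0667 and 0.0738), with the replicate block (adjusted p = 0.0537), in FPKM and without HIRA KO male replicate 3 (2.18, adjusted p = 0.0548). The median of the 24 was −0.35, against −2.52 for the other 28 Mup rows tested. Fkbp15 changed by −0.62 (adjusted p = 6.75e-05) and Pole3 by 0.52 (adjusted p = 0.0009).

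RefSeq promoter sequences of GRCm38.p6 were at hand for 7 of the 9 members, all but Mup1 and Mup20. None of the 7 held, in the 250 bases before the start and on either strand, TTCNNNGAA (STAT5), TTGCNNAA (C/EBP), CAAAGTCCA (HNF4), TGTTTAC (the forkhead family), TATAAA (the core of a TATA box) or the HNF1 motif, which says only that these letters are not in these windows. The windows of Mup2, Mup3, Mup17 and Mup21 did hold TATATAAG, which the letters TATAAA miss, so this search does not show that a TATA box is absent. Of 32851 promoter windows of that length 7.02% held the first, 9.56% the second, 0.38% the third, 3.17% the fourth, 12.37% the fifth and 0.01% the HNF1 motif.

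Over the 18 mice, the gene outside the family whose log2 CPM most resembled the family sum was Ces3a, a carboxylesterase, with Pearson's r of 0.983 among 12845 genes with a mean of at least 1 CPM. Cmah (0.952), Adh4 (0.948), Serpina3k (0.940) and Ephx2 (0.940) followed, and these values are descriptions over groups that differ in sex and genotype. Within the 9 males and the 9 females r was 0.980 and 0.985 for Ces3a. Ces3a was at 342 to 781 CPM in HIRA KO males and 1412 to 1853 in control males, and at 30.2 to 76.0 in HIRA KO females and 267 to 431 in control females.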

How the data were processed

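The authors extracted RNA from whole liver, selected poly-A RNA and aligned the reads to mm10 with STAR. The deposited counts are whole reads per gene, without normalization. The methods name HOMER for counting and the submitters' processing notes name HTSeq and Cufflinks, while strand use and the treatment of reads shared between copies are not given in the sources used here. The authors also deposited FPKM, whose blank cells were read as 0.

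The count fits used edgeR 4.0.16 under R 4.3.3 (TMM, quasi-likelihood test, genes with at least 10 counts in total, 4 group means over all 18 mice, both control types pooled; 6 group means for the control types). The p-values were adjusted by Benjamini-Hochberg over all rows tested in a fit, which were 23512 genes in the main fit of single genes. In the fit of the family sum, 1 row stood in place of all Mup rows. The SE is the absolute log2 fold change divided by the square root of F. CPM used TMM library sizes. FPKM were tested as log2(FPKM + 1) with limma 3.58.1, which understates the change of low genes. Figures were drawn with matplotlib 3.10.9. On simulated counts, the comparison over both sexes was tried with edgeR (also with the replicate block), DESeq2, voom and limma on log2(CPM + 1). The other fits were not tried on simulated data. No pair of replicates matched within sampling noise (chi-square per gene of 19.0 to 84.5). Nothing in the labels pairs samples across groups beyond a number, and p-values measure the spread between these mice.

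The members and lists were chosen with earlier results of these data known. Named were the 9 members, up to 5 genes of each of 3 lists with the smallest adjusted p plus those in a count of 5 or fewer, and the 5 genes that correlated best with the family sum. Apart from these, Apoa1 and other markers were named to spell out a count.

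Alternatives were DESeq2 1.42.0, RLE, scaling without Mup rows, 2 other filters, no fold threshold, each control type alone, the replicate block, FPKM, the sum of the 9 members, leaving out each mouse and, chosen after seeing the data, voom weights and fits within each sex.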

Additional observations from a re-analysis of the deposited data

Results flagged for a closer look

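Mup20 was picked out because the HIRA KO effect differed between the sexes, by −2.89 on the log2 scale in the counts (adjusted p = 0.00146), with all 3 males below and all 3 females above the controls of their sex.

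Among the 42 control groups of 6 looked at (each member in CPM and in FPKM, and the family), 14 held a mouse far from the other 5. Distance was judged by the gap to the next value over the range, on values that were not logged. Chance gives about 1 in 20 only for normally distributed values, and the distribution of these values was not tested. HIRA fl/fl AAV ctl male replicate 2 was the highest control male for Mup7 (608 CPM, next 243), Mup1 (13.0 CPM, next 6.00), Mup11 (538 CPM, next 224) and Mup17 (248 CPM, next 87.6), and in FPKM for Mup7 (4867), Mup1 (2640) and Mup17 (2412). HIRA fl/fl AAV ctl female replicate 3 was the highest control female for Mup7 (2.60 CPM), Mup2 (5.38 CPM) and Mup11 (2.65 CPM). HIRA fl/fl AAV ctl female replicate 2 was the highest for Mup17 (51.1 CPM) and for Mup7 in FPKM (422). HIRA fl/fl AAV ctl female replicate 1 was the highest for Mup20 (78.2 FPKM) and Mup21 (119.5 FPKM). All 14 values came from 4 HIRA fl/fl AAV ctl mice and lay on the high side. The members share reads, so these are not 14 separate observations, and no cause was tested.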

How the results depend on the processing

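The fall of the family sum over both sexes, in males and in females kept its direction and its call under every alternative that was run. The difference between sexes in the family sum was called in FPKM (2.12 with a pseudocount of 1 and 2.12 with 0.1) and ranged from −0.27 to 0.53 when 1 mouse was left out of the counts. Members called over both sexes were 8 in FPKM with either pseudocount, and 4 to 6 when 1 mouse was left out of the counts. With a pseudocount of 1, 0.689% of all genes were called lower in FPKM. The 8 include the 6 members that share reads, which do not count as 6 separate genes. Members called in males were 8 with no filter, 3 with WT AAV Tbg-Cre as the only controls, 3 in FPKM and 4 to 8 when 1 mouse was left out. In females they were 8 in FPKM, 2 with voom weights and 2 to 5 when 1 mouse was left out. Without HIRA KO female replicate 2 or 3 they were 2. For alternatives other than FPKM, the shares of all genes called are not given here. Called genes of the growth hormone list were 1 with RLE and with either control type alone (Ghr, with HIRA fl/fl AAV ctl), 14 with no fold threshold, 0 in FPKM and with voom weights, and 0 to 2 when 1 mouse was left out. Called lipocalins were 4 with no fold threshold, 1 with log2(FPKM + 1), 1 with voom weights and 1 to 3 when 1 mouse was left out. Called genes beside the cluster were 7 with no fold threshold and 1 with WT AAV Tbg-Cre as the only controls.

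The family share differed by −1.21 percentage points in males and −0.151 in females. With 3 controls it was −1.36 and −1.06 in males and −0.150 and −0.152 in females (exact permutation p = 0.1, the smallest that 20 splits allow), and −1.30 to −1.10 and −0.157 to −0.139 when 1 mouse was left out. Without any 1 HIRA KO mouse the exact permutation p was 0.0714 in its sex, the smallest that 28 splits allow, so the threshold could not be reached. Between control types the female family sum was 0.080 with the replicate block and −0.14 to 0.29 when 1 mouse was left out.

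Directions turned for Mup14 in females (−5.56 and −5.78 in FPKM, −0.16 with voom weights, −3.06 to 1.48 when 1 mouse was left out), for its difference between sexes (4.12 and 4.34 in FPKM, −4.99 to 1.36), for Mup14 over both sexes (0.31 with WT AAV Tbg-Cre controls), for Mup7 in females (0.98 with the same controls), for Mup20 over both sexes (0.073 with HIRA fl/fl AAV ctl controls, −0.28 to 0.0098) and for Hnf4a (0.088 and 0.36 in FPKM, where 1 control male is listed at 0). The cause was not tested. Same-numbered mice did not deviate together, with correlations from −0.16 to 0.094 in 12 pairs and 0 above 0.1. With the replicate block the family sum was −2.55 over both sexes and the calls of the family sum did not change, while Mup11 over both sexes (−1.88, adjusted p = 0.0407) and Mup17 in males (−2.09, adjusted p = 0.0465) became called. By edgeR, Mup11 over both sexes was also called with no filter on low counts (−1.58, adjusted p = 0.0185). Without HIRA KO male replicate 1, Mup11 (−2.855, adjusted p = 0.000273) and Mup7 (−3.04, adjusted p = 0.0246) were called over both sexes. Low counts limit the female values of Mup1 (3 to 9 counts in control females) and Mup14 (0 to 13), although their FPKM there were 247 to 464 and 418 to 771; the cause was not tested.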
